A study of Mus musculus with 24 samples.

Results

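The Nr4a genes Nr4a1, Nr4a2 and Nr4a3 code for the orphan nuclear receptors Nur77, Nurr1 and Nor1, and were followed through both hemispheres of the mouse brain after experimental stroke. The 3 genes were taken by their platform gene symbols, with 1 probe set each, out of 19505 genes measured. RNA came from male C57Bl/6j mice aged 8 to 10 weeks, all perfused with cold saline. Middle cerebral artery occlusion (MCAO) lasted 90 min in 8 mice, by an intraluminal filament, and the brain was taken 30 min later, 2 h after the onset of ischaemia. The ipsilateral (IP) hemisphere of these mice is the occluded side, and the contralateral (CL) hemisphere, which the labels call healthy, is the opposite side. The other 4 mice had sham surgery and gave sham IP and sham CL hemispheres. The times above are those of the MCAO mice, and none is recorded here for the sham mice. Each hemisphere had its own Affymetrix whole-transcript array, 24 in all, and values are the authors' deposited probe-set signals on a log2 scale. Whole hemispheres were measured, so more cells of a type and more RNA per cell cannot be told apart.

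Nr4a receptors bind DNA like other nuclear receptors but act without a known physiological ligand, so their output depends largely on how much receptor is made. They are immediate early genes: calcium entry, cyclic AMP and growth factor signals induce them within minutes through factors that include CREB, which binds the cyclic AMP response element (CRE). The receptors bind the response element NBRE as monomers, and Nr4a1 and Nr4a2 can also pair with retinoid X receptors. In the brain Nr4a2 is known for its part in midbrain dopamine neurons, while Nr4a1 and Nr4a3 are best known as genes induced by neuronal activity.

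The promoters are shown because the members share 1 feature there that the choice of genes did not use. All 3 genes were found in the RefSeq promoter table (build GRCm38.p6), and the 250 bases before the annotated transcript start were searched on both strands for the CRE core CGTCA. The starts used for Nr4a1 and Nr4a3 lie within the longer RefSeq spans of those genes (chr15:101253902-101274795 and chr4:48045078-48086447). All of the Nr4a1 window and most of the Nr4a3 window thus fall inside the annotated span of the gene. Capitals mark CGTCA, or TGACG where the core is on the other strand. The windows were chr15:101266596-101266845 on the plus strand for Nr4a1, chr2:57124004-57124253 on the minus strand for Nr4a2 and chr4:48045055-48045304 on the plus strand for Nr4a3.
Nr4a1: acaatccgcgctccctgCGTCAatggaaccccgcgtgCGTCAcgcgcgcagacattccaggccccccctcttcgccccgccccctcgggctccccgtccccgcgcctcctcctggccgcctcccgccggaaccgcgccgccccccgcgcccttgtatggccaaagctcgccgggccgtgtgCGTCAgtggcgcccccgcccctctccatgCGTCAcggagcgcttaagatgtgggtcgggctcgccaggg
Nr4a2: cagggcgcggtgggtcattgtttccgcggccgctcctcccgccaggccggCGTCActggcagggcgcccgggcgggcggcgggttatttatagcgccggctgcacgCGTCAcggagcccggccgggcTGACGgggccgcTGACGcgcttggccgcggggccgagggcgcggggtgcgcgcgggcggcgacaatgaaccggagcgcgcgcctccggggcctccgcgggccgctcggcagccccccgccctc
Nr4a3: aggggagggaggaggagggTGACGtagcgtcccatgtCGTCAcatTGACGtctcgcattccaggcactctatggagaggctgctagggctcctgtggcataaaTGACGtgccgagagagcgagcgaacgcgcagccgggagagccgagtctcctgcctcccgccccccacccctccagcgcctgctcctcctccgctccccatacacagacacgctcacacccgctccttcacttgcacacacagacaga
Each window held 4 CRE cores, with none overlapping another. Of 27025 promoters of the same length, 17.9% held at least 1 core and 0.152% held 4 or more. The core contains a CpG, and the Nr4a windows were rich in G and C, at 74.4%, 80.0% and 63.6% for Nr4a1, Nr4a2 and Nr4a3, against a median of 52.0% over all windows. Among the 5296 windows with at least the GC content of the Nr4a3 window, 0.434% held 4 or more cores. Counted from the start, the cores began at -233, -213, -69 and -40 in Nr4a1, at -200, -144, -123 and -111 in Nr4a2, and at -231, -213, -205 and -147 in Nr4a3. The full palindrome TGACGTCA, the NBRE AAAGGTCA and the CArG box bound by serum response factor were not found in any of the 3 windows, and 1.62%, 1.31% and 1.40% of all windows held them. The motif searches took exact patterns, so sites that differ by a base were not counted. A match of letters is a description and not evidence of binding.

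**Figure D1:**
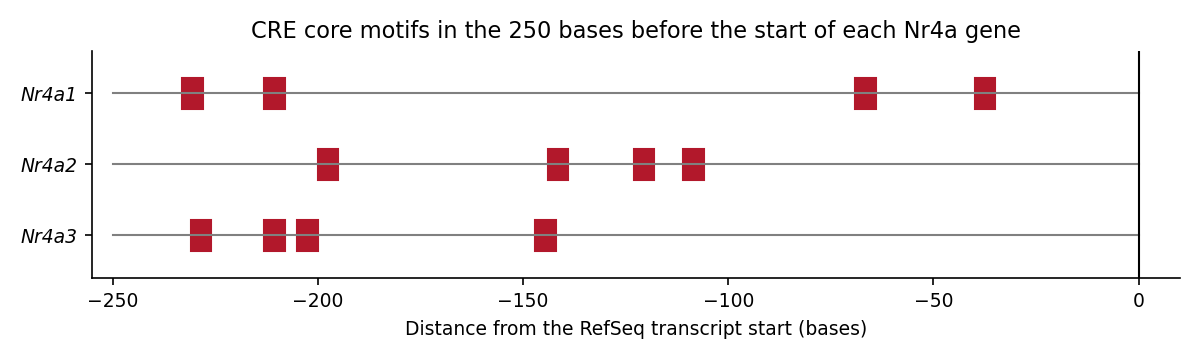
Position of the CRE core CGTCA, on either strand, in the 250 bases before the RefSeq transcript start used for Nr4a1, Nr4a2 and Nr4a3. The x axis is the distance from the start in bases, each red block is 1 core of the motif, and each gene has 4.

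Both arrays from MCAO mouse 3 and both from sham mouse 1 stood apart from the other 20. Their median correlation over probe sets with those 20 was 0.328 to 0.55, against 0.981 to 0.989 among the 20, and their SD over probe sets was 1.44 to 1.54, against 2.33 to 2.41. The background level, the 95th percentile of 5222 negative control probe sets, was 7.41 to 7.61 on these 4 arrays and 5.17 to 5.74 on the others. All 3 members were above background on each of the 20 arrays. On the 4 arrays Nr4a1 was above background on 0, and Nr4a2 and Nr4a3 only in the IP hemisphere of MCAO mouse 3. Results for the members are given on all 24 arrays and on the 20.

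Nr4a1 rose in the occluded hemisphere, both against the opposite hemisphere of the same mice and, once the 4 arrays were left out, against sham surgery. In MCAO IP hemispheres its log2 signal had a lowest value of 5.26, a median of 9.63 and a highest of 9.91, against 4.88, 7.90 and 9.38 in MCAO CL hemispheres. The lowest value on each side belonged to MCAO mouse 3. The next lowest values were 8.80 in MCAO IP and 7.66 in MCAO CL hemispheres. Sham IP hemispheres gave 5.18, 6.85, 7.11 and 7.51 for mice 1 to 4, and sham CL hemispheres gave 4.73, 7.33, 7.51 and 7.45. Over the 20 arrays every MCAO IP value was above every sham IP value, which held for 1.4% of probe sets. Of the 120 ways to split these mice 7 to 3, 1 gives that order. On the same arrays the sides of MCAO mice overlapped only through the CL signal of mouse 6, at 9.38.

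Within MCAO mice Nr4a1 rose 2.4-fold on the occluded side (log2 difference 1.27 ± 0.21 SE, limma adjusted p = 0.0183, higher in 8 of 8 mice, MCAO mouse 3 being below background on both sides). Without the 4 arrays the fold was 2.62 (1.39 ± 0.20, limma adjusted p = 0.0155, 7 of 7 mice). In this comparison 0.0856% of 22206 probe sets were called higher, and 0.126% on the 20 arrays, at an adjusted p under 0.05, while 0 probe sets were called lower on all arrays and 0.00901% on the 20. Of the 3 members, Nr4a1 and Nr4a3 were called in both. On all arrays the Nr4a1 call ended with mouse as a random block (limma adjusted p = 0.0506), with only the MCAO mice in the fit (0.106), after quantile normalization (0.121) and with no replicate block (1), at differences of 1.27 to 1.29. Without MCAO mouse 1, 4, 7 or 8 the Nr4a1 call was lost, at 1.26, 1.16, 1.13 and 1.14 with limma adjusted p-values of 0.082, 0.109, 0.0887 and 0.0932. Leaving out the same mice from the 20 arrays gave 1.41, 1.29, 1.25 and 1.27, with limma adjusted p-values of 0.0563, 0.0731, 0.0567 and 0.0665.

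Against sham surgery Nr4a1 rose on the operated side of the 20 arrays. It averaged 9.59 ± 0.41 in MCAO IP hemispheres (SD, n = 7) and 7.16 ± 0.33 in sham IP hemispheres (SD, n = 3). The log2 difference was 2.43 ± 0.23 (5.39-fold, limma adjusted p = 8.69e-05). Leaving out each of the 10 mice in turn kept it between 2.28 and 2.61, with limma adjusted p-values of 8.55e-06 to 0.00241. There, 0.126% of probe sets were called higher and 0.0225% lower, and Nr4a1 was the only member called. On all 24 arrays the difference was 2.38 ± 0.79 with a limma adjusted p of 0.968, where 0.0045% of probe sets were called higher. Without MCAO mouse 3 alone it was 2.93 with a limma adjusted p of 0.0122.

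Between MCAO CL and sham CL hemispheres Nr4a1 did not pass the test. Its means on the 20 arrays were 8.20 ± 0.63 (SD, n = 7) and 7.43 ± 0.09 (SD, n = 3), and the difference was 0.76 ± 0.30 (95% interval 0.12 to 1.41, limma adjusted p = 1). Each of the 7 MCAO CL values lay above each of the 3 sham CL values, which held for 0.779% of probe sets. Of the 120 ways to split these mice 7 to 3, 1 gives that order. A share of this size is near that of random labels and does not single out Nr4a1. On all arrays the same order held for 0.0495% of probe sets, but not for Nr4a1. On all arrays the difference was 1.03 ± 0.74 (limma adjusted p = 0.997). The limma count of called probe sets was 0 in both cases, with 1020 at an unadjusted p under 0.05 on the 20 arrays and 81 on all arrays.

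**Figure D2:**
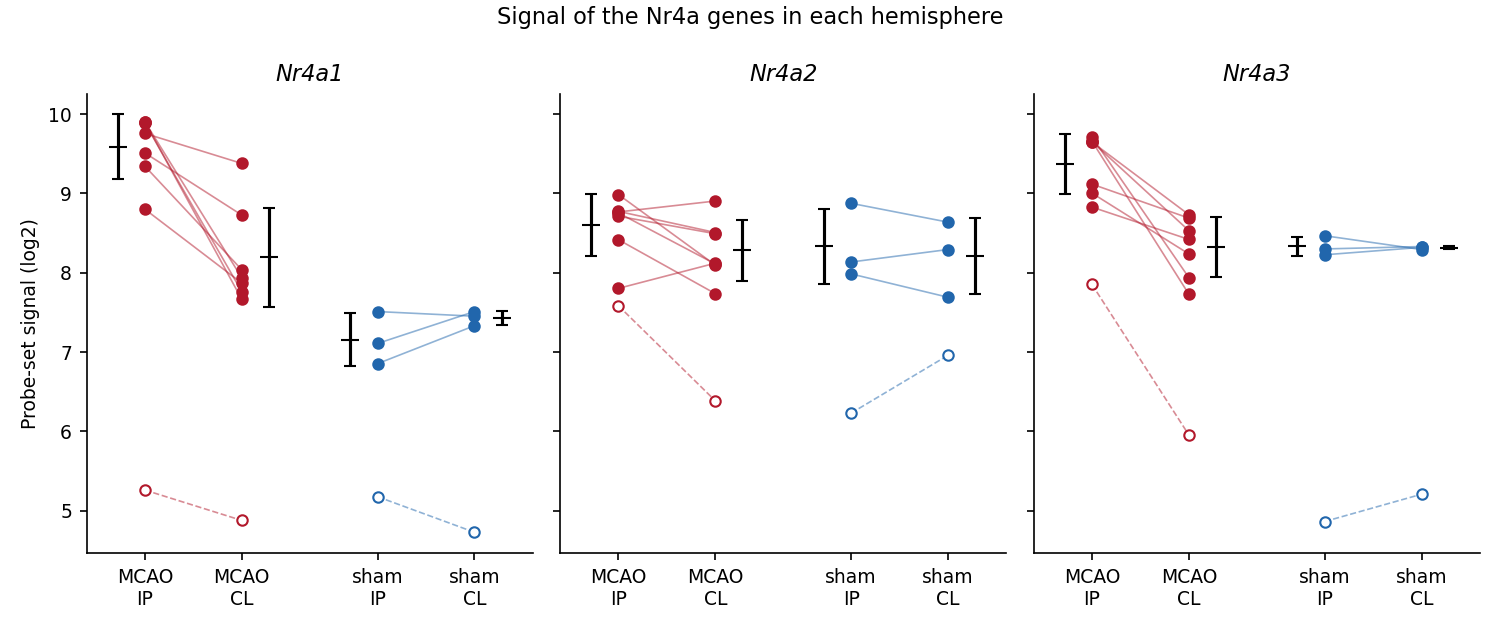
Log2 probe-set signal (y axis) of Nr4a1, Nr4a2 and Nr4a3 in each hemisphere, with a line joining the hemispheres of a mouse, MCAO mice in red and sham mice in blue. Open points and dashed lines mark MCAO mouse 3 and sham mouse 1, and black bars are the mean and SD without them. Nr4a1 lies at 8.80 to 9.91 in MCAO IP hemispheres and at 6.85 to 7.51 in sham IP hemispheres when these arrays are left out.

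Nr4a3 rose on the occluded side as well, and its MCAO CL values overlapped those of both sham groups. In MCAO IP hemispheres its log2 signal had a lowest value of 7.85, a median of 9.38 and a highest of 9.71, against 5.95, 8.33 and 8.73 in MCAO CL hemispheres. Among the 20 arrays every MCAO IP value, from 8.83 upward, was above every MCAO CL value, which held for 0.0721% of probe sets. Sham IP hemispheres gave 4.86, 8.47, 8.23 and 8.30 for mice 1 to 4, and sham CL hemispheres 5.21, 8.29, 8.32 and 8.33. The sham values of mice 2 to 4 thus fell in a narrow band, inside the range of MCAO CL and below all MCAO IP values of the 20 arrays.

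Within MCAO mice Nr4a3 was 2.23-fold higher on the occluded side (1.16 ± 0.18, limma adjusted p = 0.00885, 8 of 8 mice). Without the 4 arrays it was 2.07-fold higher (1.05 ± 0.17, limma adjusted p = 0.0328, 7 of 7 mice). On all arrays the call was lost with only the MCAO mice in the fit, after quantile normalization and with no replicate block (1.15 to 1.16, limma adjusted p = 0.08, 0.121 and 1), and without MCAO mouse 8 (1.07, limma adjusted p = 0.0523). From the 20 arrays it was lost without MCAO mouse 1, 4, 6, 7 or 8 (0.90 to 1.10, limma adjusted p = 0.0662 to 0.129), and without sham mouse 2, 3 or 4, which leave the difference at 1.05 and lower the degrees of freedom (limma adjusted p = 0.0555 to 0.0601).

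Against sham IP hemispheres Nr4a3 differed by 1.04 ± 0.20 on the 20 arrays (95% interval 0.61 to 1.47, limma adjusted p = 0.0693), short of the threshold. It passed there without MCAO mouse 5 (1.13, limma adjusted p = 0.0181). All 7 MCAO IP values were above all 3 sham IP values for Nr4a1 and Nr4a3, which held for 1.4% of probe sets, and 1 of 120 splits gives that order. With all arrays this held for 0.117% of probe sets and for no member. On all arrays the Nr4a3 difference was 1.72 ± 0.61 (limma adjusted p = 0.968), and without sham mouse 1 it was 0.85. Between MCAO CL and sham CL hemispheres Nr4a3 differed by 0.01 ± 0.20 on the 20 arrays, with a 95% interval of -0.42 to 0.44. On all arrays it was 0.49 ± 0.64, and neither passed (limma adjusted p = 1 and 0.997). Whether Nr4a1 and Nr4a3 differed from each other in the contralateral hemisphere was not tested.

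Nr4a2 was measured in all 4 groups and passed no test. In MCAO IP hemispheres its log2 signal had a lowest value of 7.58, a median of 8.73 and a highest of 8.99, against 6.38, 8.12 and 8.90 in MCAO CL hemispheres. Sham IP hemispheres gave 6.23, 8.88, 8.14 and 7.99 for mice 1 to 4, and sham CL hemispheres 6.96, 8.64, 8.29 and 7.69. The groups overlapped throughout. Within MCAO mice the difference was 0.43 ± 0.17 (1.35-fold, 95% interval 0.08 to 0.79, limma adjusted p = 0.94) and positive in 6 of 8 mice. Without the 4 arrays it was 0.32 ± 0.14 (95% interval 0.02 to 0.62, limma adjusted p = 0.667), positive in 5 of 7. Against sham IP hemispheres it was 0.27 ± 0.24 on the 20 arrays (95% interval -0.24 to 0.78, limma adjusted p = 0.846) and 0.67 ± 0.43 on all arrays (limma adjusted p = 0.968). Leaving out each mouse in turn moved it between 0.097 and 0.54 on the 20 arrays and between 0.14 and 1.02 on all arrays. Between contralateral hemispheres it was 0.07 ± 0.24 on the 20 arrays (95% interval -0.43 to 0.58) and 0.15 ± 0.44 on all arrays. These intervals leave room for a moderate rise and do not show that Nr4a2 stayed the same.

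**Figure D3:**
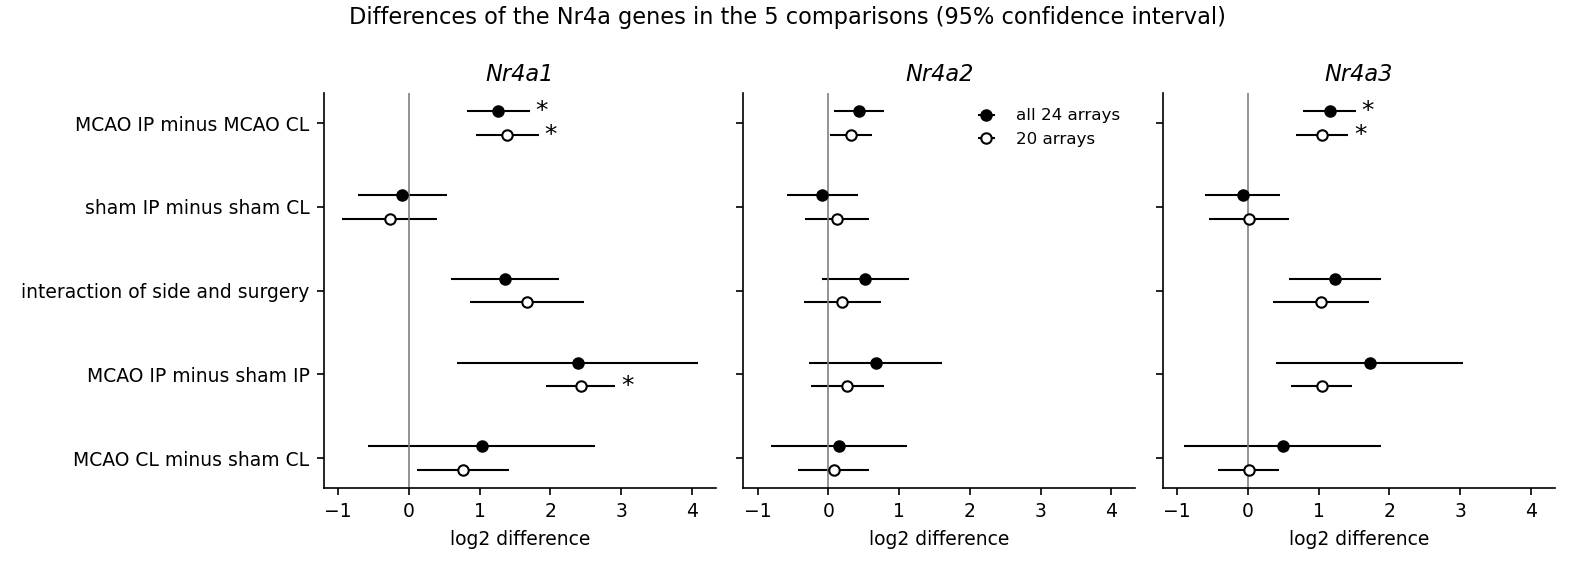
Log2 differences (x axis) of Nr4a1, Nr4a2 and Nr4a3 in the 5 comparisons (y axis), with 95% confidence intervals as bars. Filled points use all 24 arrays and open points the 20 arrays, and an asterisk marks a limma adjusted p under 0.05 over all probe sets. Nr4a1 and Nr4a3 carry asterisks in MCAO IP minus MCAO CL in both fits, and Nr4a1 also in MCAO IP minus sham IP on the 20 arrays.

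By mean over the 20 arrays, the order of Nr4a1 was MCAO IP at 9.59, MCAO CL at 8.20, sham CL at 7.43 and sham IP at 7.16, and only the first step passed the test. For Nr4a3 the order was MCAO IP at 9.37, sham IP at 8.33, MCAO CL at 8.33 and sham CL at 8.31, and the 3 lower means lay well within the SD of 0.38 of the MCAO CL values. For Nr4a2 it was MCAO IP at 8.60, sham IP at 8.33, MCAO CL at 8.28 and sham CL at 8.21, with every neighbour within the SDs of 0.38 to 0.48.

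The side difference (IP minus CL within a mouse) varied widely among MCAO mice. In MCAO mouse 3 Nr4a1 was not above background on either side, and Nr4a2 and Nr4a3 were not above it on the CL side, so the values of that mouse are printed but not ordered. For Nr4a1 it was 1.31, 0.78, 0.38, 1.97, 0.93, 0.38, 2.24 and 2.13 in MCAO mice 1 to 8, with mice 7, 8 and 4 highest and mouse 6 lowest of the other 7. Mouse 6 had an IP signal of 9.76 and the highest CL signal of its group, 9.38. For Nr4a3 the differences were 0.77, 0.43, 1.90, 1.12, 0.41, 0.92, 1.93 and 1.77, highest in mice 7 and 8 of the other 7. For Nr4a2 they were -0.14, 0.27, 1.20, 0.89, -0.32, 0.22, 0.68 and 0.64, highest in mouse 4 of the other 7 and below 0 in mice 1 and 5. A positive difference in every MCAO mouse, as for Nr4a1 and Nr4a3, was found in 0.707% of probe sets, and in 1.22% on the 20 arrays. With so few mice random signs also give such probe sets, so the count of signs alone does not single out these genes.

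After sham surgery the side differences had both signs and none passed the test. None of the members was above background on either array of sham mouse 1. In sham mice 1 to 4 the difference was 0.45, -0.48, -0.40 and 0.06 for Nr4a1, a fitted mean of -0.09 ± 0.30 (limma adjusted p = 0.933). For Nr4a3 it was -0.34, 0.17, -0.09 and -0.03, with a fitted mean of -0.07 ± 0.25 (limma adjusted p = 0.938). For Nr4a2 it was -0.73, 0.24, -0.16 and 0.29, with a fitted mean of -0.09 ± 0.24 (limma adjusted p = 0.921). Without the arrays that stood apart the means were -0.27, 0.02 and 0.12 for Nr4a1, Nr4a3 and Nr4a2. In this comparison limma called 0 probe sets, with 1390 at an unadjusted p under 0.05, and 0 with 1220 on the 20 arrays.

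A term for side by surgery compared the side difference of MCAO mice with that of sham mice. This interaction was 1.36 ± 0.36 for Nr4a1, 1.23 ± 0.31 for Nr4a3 and 0.52 ± 0.29 for Nr4a2, each with a limma adjusted p of 0.891. Without the 4 arrays it was 1.67 ± 0.37 for Nr4a1, 1.03 ± 0.31 for Nr4a3 and 0.20 ± 0.25 for Nr4a2, with limma adjusted p-values of 0.342, 0.67 and 0.958. Limma called 0 probe sets in both, with 1138 and 1312 at an unadjusted p under 0.05. The 95% intervals on the 20 arrays were 0.86 to 2.47 for Nr4a1, 0.36 to 1.71 for Nr4a3 and -0.35 to 0.74 for Nr4a2.

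Relabelling the 12 mice in all 495 ways, an exact permutation test (two-sided, run for each of 22206 probe sets) gave p = 0.0121 for Nr4a1, 0.00808 for Nr4a3 and 0.127 for Nr4a2. Adjusted over all probe sets these were 0.746, 0.718 and 0.912. The smallest p that the design allows is 0.00202, so an adjusted p under 0.05 would need a large number of probe sets to reach that value together. On 7 MCAO and 3 sham mice the exact permutation p-values were 0.0167, 0.0333 and 0.5 in the same order, with 0.00833 as the smallest possible. The side difference of Nr4a3 was higher in every MCAO mouse than in every sham mouse, which held for 0.288% of probe sets. This includes MCAO mouse 3, with Nr4a3 below background on the CL side, and sham mouse 1, below it on both. That of Nr4a1 was so only on the 20 arrays, where it held for 1.07% of probe sets and for Nr4a3 too. Of the 495 relabellings 1 gives that order, and so does 1 of the 120 on 7 and 3 mice. These shares are near those of random labels, so the order does not single out either gene.

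**Figure D4:**
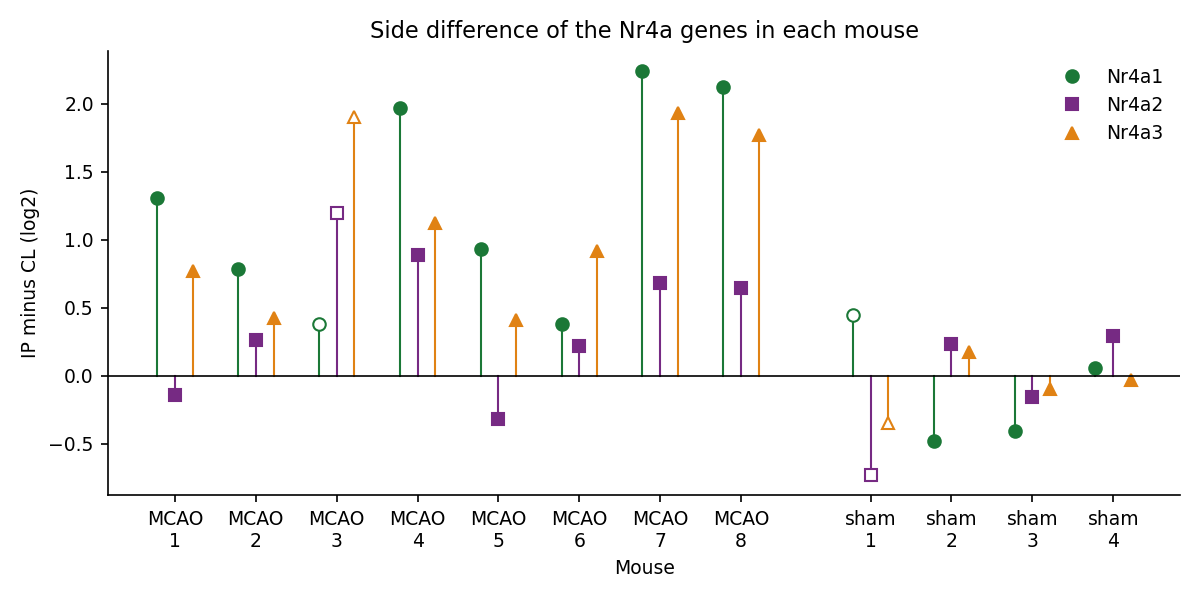
Side difference, IP minus CL on the log2 scale (y axis), of Nr4a1, Nr4a2 and Nr4a3 in each of 8 MCAO and 4 sham mice (x axis). Open symbols are the mice whose arrays stood apart. Nr4a1 and Nr4a3 lie above 0 in all 8 MCAO mice, and Nr4a2 in 6.

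Among the 8 MCAO mice the side differences of Nr4a2 and Nr4a3 had a Pearson r of 0.80 (exact permutation p = 0.0234, adjusted over the 3 pairs 0.0702) and a Spearman rho of 0.81 (exact permutation p = 0.0218, adjusted 0.0653). Without the 2 mice farthest from the median of Nr4a2 the Pearson r was 0.63. Nr4a1 and Nr4a3 had r = 0.41 and rho = 0.40 (exact permutation p = 0.289 and 0.327, adjusted 0.434 and 0.49), and r was -0.19 without the 2 farthest mice. Nr4a1 and Nr4a2 had r = 0.20 and rho = 0.19 (exact permutation p = 0.617 and 0.665, adjusted 0.617 and 0.665), and r was -0.003 without the 2 farthest mice. MCAO mouse 3, in which Nr4a1 was below background on both sides, moved these values. Without it r was 0.81 for Nr4a1 and Nr4a3, 0.73 for Nr4a2 and Nr4a3 and 0.69 for Nr4a1 and Nr4a2, with exact permutation p-values adjusted over the 3 pairs of 0.097, 0.102 and 0.102. No pair passed the adjustment in either set of mice.

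The other nuclear receptors, the wider family that senses steroid, thyroid and retinoid hormones, lipids and haem, gave no call between the sides of MCAO brains. Of 46 listed receptors 40 were measured, and 0 were called in either direction in limma, with 1 at an unadjusted p under 0.05 and 2 on the 20 arrays. Their median difference was 0.05 on all arrays and -0.004 on the 20, against -0.002 and -0.005 over all probe sets. They ranged from -0.28 for Nr0b1, the corepressor-like receptor Dax1, to 0.30 for Nr1i2, a xenobiotic sensor. Both were nearer 0 on the 20 arrays, at -0.01 and 0.06. Nr3c1, the glucocorticoid receptor, was at 0.26 ± 0.12 (limma adjusted p = 0.94). The dimer partners Rxrg, Rxra and Rxrb were at 0.24, 0.17 and -0.12, and 0 of 3 were called, also on the 20 arrays. Against sham IP hemispheres 0 of the 40 receptors were called in limma, with 0 at an unadjusted p under 0.05 and 1 on the 20 arrays. The other 6 receptors were not analysed here.

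**Figure D5:**
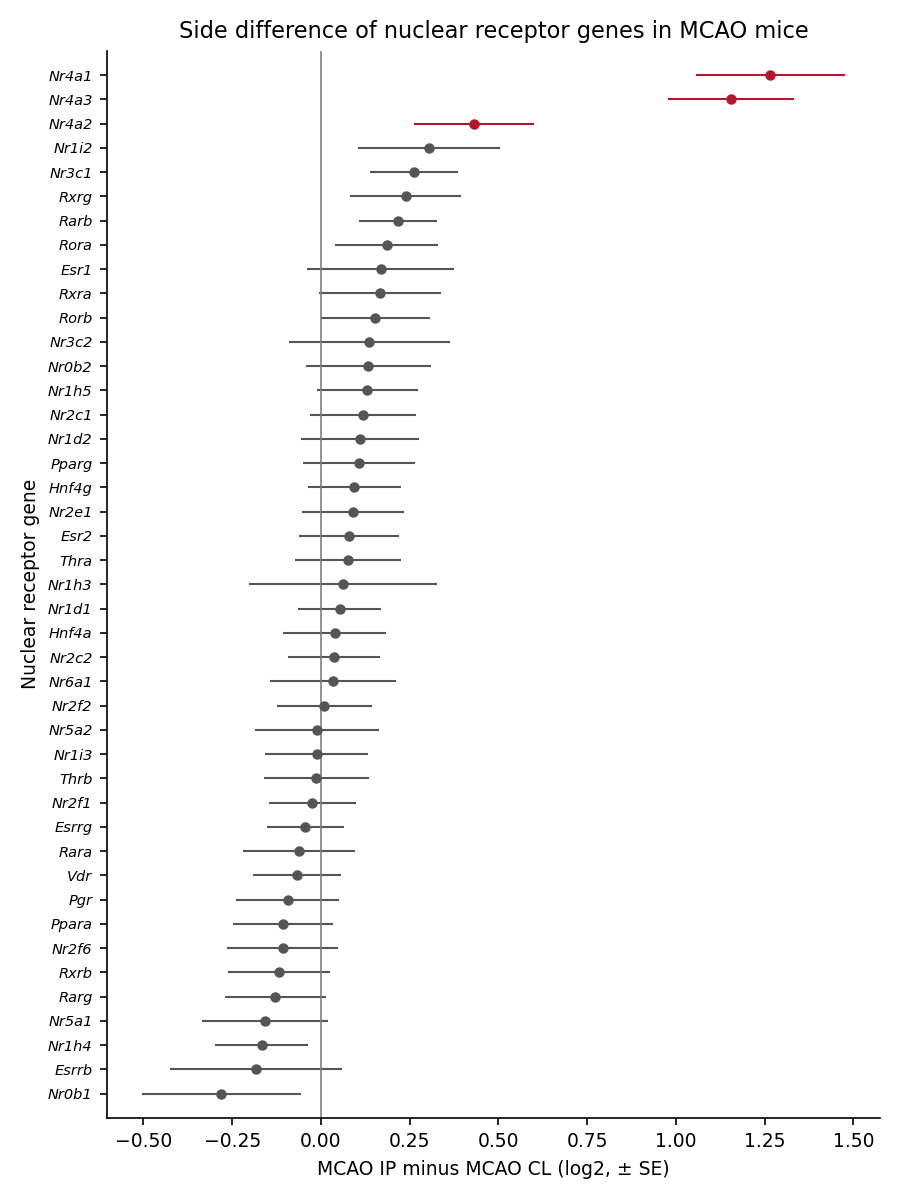
Log2 difference between MCAO IP and MCAO CL hemispheres (x axis, all 24 arrays, bars are ± SE) of the 3 Nr4a genes, in red, and of 40 other nuclear receptor genes, in grey, ordered by size. The Nr4a genes lie at 0.43 to 1.27 and the others at -0.28 to 0.30.

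Transcripts of factors known to act on Nr4a promoters were not called. Of 21 measured CREB, MEF2 and SRF factors and cofactors, 0 were called between the sides of MCAO brains in limma, with 3 at an unadjusted p under 0.05 on all arrays and 3 on the 20. Their median was 0.04, and 0.01 on the 20 arrays. Mef2c, an activity-regulated transcription factor, was at 0.40 ± 0.28 and Elk3, an ETS-domain partner of serum response factor, at 0.37 ± 0.15 (limma adjusted p = 0.94 for both). Mef2c was at 0.03 and Elk3 at 0.32 on the 20 arrays. Sik1, a kinase induced by CREB that feeds back on its coactivators, was at 0.77 ± 0.18 in MCAO IP against sham IP hemispheres on the 20 arrays (limma adjusted p = 0.208).

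Most immediate early genes listed as co-induced with the Nr4a genes rose on the occluded side, a list chosen with earlier results of these data known. Of 9 immediate early genes (Fos, Fosb, Junb, Egr1, Egr2, Egr3, Egr4, Npas4 and Arc) 6 were called higher between the sides of MCAO brains and 7 on the 20 arrays, against 0.0856% and 0.126% of all probe sets, with medians of 1.24 and 1.43. Against sham IP hemispheres 6 of 9 were called on the 20 arrays, with a median of 1.90, and 0 on all arrays. In limma 8 of the 9 were at an unadjusted p under 0.05 there in both fits. Between MCAO CL and sham CL hemispheres the median was 0.68 on the 20 arrays and 0 were called, with 4 at an unadjusted p under 0.05 in limma. Fos was at 1.20 ± 0.49 and Junb at 0.68 ± 0.28 in that comparison, beside 0.76 ± 0.30 for Nr4a1 and 0.01 ± 0.20 for Nr4a3. These comparisons share their arrays with those of the members.

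Corepressors and partners of the receptors, and genes reported as their targets, gave 0 calls. Of 4 measured partners, Bcl2, the apoptosis regulator that binds Nr4a1 at mitochondria, was at 0.48 ± 0.19 within MCAO mice (limma adjusted p = 0.94) and 0.25 on the 20 arrays. Kdm1a, the histone demethylase of the CoREST complex, was at 0.08 ± 0.13. Of 10 reported targets, Bdnf, a neurotrophin, was at 0.63 ± 0.14 (limma adjusted p = 0.244) and 0.70 ± 0.13 on the 20 arrays (limma adjusted p = 0.0732). Slc6a3, the dopamine transporter, was at -0.47 ± 0.21 (limma adjusted p = 0.94) and -0.32 on the 20 arrays, where it was not above background on every array of any group. The median of the targets was -0.11, and -0.04 on the 20 arrays. At an unadjusted p under 0.05 limma gave 1 of the 4 partners in both fits, and 2 of the 10 targets, or 1 on the 20 arrays.

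The genes most like each member were ranked by Pearson r of the log2 signals over the 20 arrays. Candidates were 10101 genes of at least median signal. All share arrays and scaling, and r includes the differences between the 4 groups. It is therefore a description, and the side differences of genes chosen this way are not separate support. For Nr4a1 the 5 highest were Junb (r = 0.96), Ccn1 (0.96), Fos (0.96), Fosb (0.96) and Dusp6 (0.96). Their side differences in MCAO mice were 1.24, 1.82, 1.83, 1.68 and 1.25. Over all 24 arrays r was 0.74 to 0.96. Junb, Fos and Fosb are subunits of the transcription factor complex of the Fos and Jun families, Ccn1 is a secreted matrix protein and Dusp6 a phosphatase of ERK kinases. For Nr4a3 the 5 were Egr4 (0.94), Egr2 (0.91), Fosb (0.91), Hspa1a (0.91) and Hspa1b (0.89), and r over all 24 arrays was 0.13 to 0.74. Egr4 and Egr2 are zinc finger transcription factors, and the heat shock protein genes Hspa1a and Hspa1b are near-identical genes whose probe sets can share signal. For Nr4a2 the 5 were Tmem47 (0.87), Zfand2a (0.85), Pxmp4 (0.83), Cat (0.82) and Pim2 (0.82), with side differences in MCAO mice of -0.09 to 0.38. Among these, Cat codes for catalase and Pim2 for a serine/threonine kinase. Over all 24 arrays r was 0.21 for Pxmp4 and 0.81 to 0.92 for the other 4. Nr4a3 ranked 29 in the order for Nr4a1, and Nr4a1 ranked 7 in the order for Nr4a3 (r = 0.88), while Nr4a2 ranked 759 for Nr4a1 (r = 0.46) and 188 for Nr4a3 (r = 0.55).

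Cell type markers of a dissected hemisphere were set beside these values. Of the lists, 7 of 7 neuronal, 6 of 6 astrocyte and 5 of 5 oligodendrocyte markers were above background on each of the 20 arrays. The summed neuronal signal (log2) was 13.4 to 13.6 in each of the 4 groups. In MCAO IP against MCAO CL hemispheres 0 genes of any marker list were called, and on the 20 arrays the list medians lay between -0.15 for midbrain dopamine neurons and 0.14 for striatal neurons. Against sham IP hemispheres 0 were called on the 20 arrays, with list medians from -0.24 for striatal neurons to 0.16 for endothelium. There 0 of 4 striatal markers had a positive difference, and in MCAO CL against sham CL hemispheres also 0 of 4, with a median of -0.24. Of 6 endothelial markers 2 were at an unadjusted p under 0.05 in limma against sham IP, and the highest difference was 0.89. Markers of midbrain dopamine neurons, where Nr4a2 is high, were above background on every array of a group in 0 of 5 genes, with summed signals of 5.45 to 6.36 in MCAO IP, 5.71 to 5.99 in MCAO CL, 5.49 to 5.68 in sham IP and 5.71 to 6.02 in sham CL hemispheres. For neutrophils and monocytes the count was 0 of 5 as well, with sums of 4.80 to 7.81, 4.70 to 7.80, 5.45 to 6.32 and 5.57 to 6.41 in the same order. For claustrum and deep cortical layer markers the counts were 2, 1, 3 and 2 of 5 in that order. Their sums were 8.11 to 8.36, 7.91 to 8.48, 8.05 to 8.26 and 8.15 to 8.20. Markers of striatal neurons, a cell type that expresses Nr4a1, had sums of 10.69 to 11.997 in MCAO IP and 10.23 to 12.05 in MCAO CL hemispheres, against 11.54 to 11.89 in sham IP and 11.24 to 12.01 in sham CL hemispheres. Their part in the values of single mice was not tested.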

How the data were processed

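RNA of 24 hemispheres was measured on Affymetrix arrays. Per the submitters' processing notes, the authors made the deposited log2 probe-set signals with Affymetrix Expression Console. Neither its version nor the normalization nor the annotation build is given in the sources used here, and the log2 scale is inferred from the values. Of 29129 probe sets, 6923 array controls were left out and 22206 were tested, 19572 of them with 1 gene symbol. Per gene the probe set of highest mean was kept. In 0 pairs of arrays were all values identical.

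Within-mouse comparisons used limma 3.58.1 (R 4.3.3, lmFit and eBayes) on 24 arrays and a fixed term per mouse, which pairs the hemispheres of 1 animal by the title numbers. Deviations from the group means on the 20 arrays had r of 0.112 to 0.307 (median 0.154) between sides of 1 mouse. Between opposite sides of different mice r was -0.203 to 0.171 (median -0.02), so the ranges overlapped. Equal numbers of MCAO and sham mice mark different animals. Comparisons between mice took the 12 arrays from 1 side at a time. The Benjamini-Hochberg adjustment ran over all probe sets, and the threshold was 0.05. Errors are SE unless SD is written. The fits and the permutation test were tested on simulated independent noise with known shifts. That noise held no mouse effects and no arrays that stand apart, so the simulations do not cover those features of the data. Permutation tests and motif searches used Python 3.11.15 with scipy 1.17.1, and figures matplotlib 3.10.9.

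The members, lists, named genes (the 3 members, the 5 most alike of each, and from each list the called genes or the 2 of largest difference, with others chosen after their values were seen) and alternatives were chosen with earlier results of these data known. Promoter sequences are from RefSeq. The number of arrays limits the precision.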

Additional observations from a re-analysis of the deposited data

Results flagged for a closer look

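The sets of values tested were 18, for 3 genes in 4 groups of hemispheres and 2 groups of side differences. In 7 of them 1 sample lay far from the rest of its group, and all 7 belonged to the arrays that stood apart. Chance gives about 1 in 20 for a single set. The sets share arrays, and those 4 arrays stood apart over all probe sets, so the 7 are not separate results. MCAO mouse 3 was lowest for Nr4a1 in the IP hemisphere (5.26, next 8.80) and the CL hemisphere (4.88, next 7.66). It was also lowest in the CL hemisphere for Nr4a2 (6.38, next 7.74) and Nr4a3 (5.95, next 7.73). Sham mouse 1 was lowest for Nr4a1 in the CL hemisphere (4.73, next 7.33) and for Nr4a3 in the IP (4.86, next 8.23) and CL hemispheres (5.21, next 8.29).

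The side difference was greater in MCAO than in sham mice by 1.36 for Nr4a1 and 1.23 for Nr4a3 in the exact permutation test before adjustment (p = 0.0121 and 0.00808). After adjustment over all probe sets neither passed (0.746 and 0.718).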

How the results depend on the processing

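With 8 MCAO and 4 sham mice, and 4 arrays on which most members were not above background, these results depend on few animals. Within MCAO mice, Nr4a1 and Nr4a3 kept their direction under every alternative run. On all arrays the calls were lost with no replicate block (1.27 and 1.16, limma adjusted p-values of 1), with only the MCAO mice in the fit (1.27 and 1.16, limma adjusted p-values of 0.106 and 0.08) and after quantile normalization (1.29 and 1.15, limma adjusted p-values of 0.121). With mouse as a random block Nr4a1 was at 1.27 (limma adjusted p of 0.0506). On the 20 arrays no replicate block, array weights and quantile normalization, chosen after seeing the data, kept both calls. The count of called probe sets, 19 in that comparison, was 30 without the 4 arrays, 0 with no replicate block, 29 with the random block, 9 with only MCAO mice, 6 after quantile normalization and 64 with array quality weights. In sham mice the sign turned for Nr4a1 after quantile normalization (0.061), and for Nr4a2 and Nr4a3 without the 4 arrays (0.12 and 0.016) and with array weights (0.11 and 0.0067). For the interaction the random block called 1 probe set and the fixed block 0. Against sham IP, Nr4a1 was called without the 4 arrays (2.43) and with array weights (2.44), Nr4a3 with array weights (1.13, limma adjusted p = 0.0172), and 33 and 50 probe sets were called in place of 1. Between CL hemispheres the sign turned for Nr4a2 after quantile normalization (-0.080) and for Nr4a3 with array weights (-0.0028, and -0.016 on the 20 arrays), and array weights called 1 probe set. The cause of these shifts was not tested. Leaving out each mouse in turn gave, within MCAO mice, 1.13 to 1.39 for Nr4a1, 1.05 to 1.26 for Nr4a3, 0.32 to 0.54 for Nr4a2 and 10 to 23 calls. In sham mice it gave -0.27 to 0.035 for Nr4a1, -0.22 to 0.12 for Nr4a2, -0.16 to 0.016 for Nr4a3 and 0 to 1 calls. Against sham IP it gave 1.89 to 2.93 for Nr4a1, 0.14 to 1.02 for Nr4a2, 0.85 to 2.05 for Nr4a3 and 0 to 17 calls. For the Nr4a2 interaction it gave 0.31 to 0.65. Between CL hemispheres it gave 0.35 to 1.44 for Nr4a1, -0.16 to 0.40 for Nr4a2 and -0.29 to 0.79 for Nr4a3. From the 20 arrays it gave, within MCAO mice, 1.25 to 1.56 for Nr4a1, 0.23 to 0.43 for Nr4a2 and 0.90 to 1.16 for Nr4a3, in sham mice 0.040 to 0.27 for Nr4a2 and -0.062 to 0.072 for Nr4a3, against sham IP 0.097 to 0.54 for Nr4a2 and 0.99 to 1.13 for Nr4a3, for the Nr4a2 interaction 0.055 to 0.30, and between CL hemispheres -0.18 to 0.29 for Nr4a2 and -0.057 to 0.11 for Nr4a3.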
